A study of Homo sapiens with 64 samples.

Results

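The long 3′ UTR intervals described here are 1163 stretches of annotated transcript end, each at least 3000 bases long and each the sole interval of its gene name. Every SLAM-seq library of the series was counted over the same 117417 intervals, of which 18327 are repeats of coordinates and name already listed. That leaves 99090 distinct intervals under 31796 gene names. Of these names, 11533 carry exactly 1 interval, and 1163 of the 11533 have one of at least 3000 bases. Only length and annotation chose them, so no measured value entered the choice. Their lengths ran from 3000 to 205012 bases (median 4192, quartiles 3481.5 and 5523.5). In GENCODE v29, 969 of the names were found, 936 of them protein coding. The annotation placed 865 intervals in a 3′ UTR, 32 in an exon of a noncoding transcript and gave no place for 266, so the word UTR is an annotation label that does not hold for each of them. Another gene name overlaps 48 of the intervals on the same strand, and reads over the shared bases count for both names.

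The cells are C4-2, an androgen-independent human prostate cancer line. They received a control siRNA (siCTRL) or an siRNA against FBL (siFBL); fibrillarin, the FBL protein, is the 2′-O-methyltransferase of the box C/D small nucleolar particle. In SLAM-seq, siCTRL and siFBL cells alike took up 100 µM 4-thiouridine for 24 h and were then chased in uridine. After alkylation the labelled base is read as a T>C conversion, and QuantSeq libraries read the 3′ ends of the mRNAs. Each siRNA was sampled at 0, 6, 12 and 24 h of chase with 2 libraries, called A and B here after replicates 1 and 2 of the file names. The hour is that of the file name, which differs from the labelled hour in 12 of the 16 libraries; file names and labels give 1 and the same siRNA for all 16. No library without 4-thiouridine is among the samples, so the background T>C level was not measured. Other assays of C4-2 cells were joined by gene name. RNA was co-precipitated with FBL (RIP) and set beside its input in siCTRL cells (2 libraries each, no control antibody). The last assay was an RNA-seq time course of siCTRL and siFBL cells at 0, 3, 6 and 12 h (2 libraries each); the labels used here do not say how transcription was stopped in it. Nothing states that replicates are separate cultures, so p-values measure the spread between these samples, which may be technical.

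A 3′ UTR is the stretch of mRNA between the stop codon and the poly(A) tail. Its length sets how much room there is for sites of RNA-binding proteins and microRNAs, many of which shorten the life of the mRNA. AU-rich elements are built on the pentamer ATTTA and are bound by decay-promoting proteins such as ZFP36 and by stabilising ones such as ELAVL1. Pumilio proteins bind TGTANATA, and AATAAA, or less often ATTAAA, is the signal for cleavage and polyadenylation. The T>C share of an mRNA falls during the chase both when labelled molecules decay and when new unlabelled ones dilute them.

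The sequences below show the elements counted in these intervals, in members whose label was lost fast and in members whose label was lost slowly. They are from GENCODE v29 transcripts placed on hg38, 5′ to 3′ on the transcript's strand, with the motif in capitals. The first 5 are 30-base windows with the most ATTTA in the interval: C16orf72 (chr16:9120568-9120597, plus strand) and ZC3H10 (chr12:56124911-56124940, plus) lost label fast, KIF1C (chr17:5027116-5027145, plus) and LSM3 (chr3:14198451-14198480, plus) slowly, and SPRED1 (chr15:38353345-38353374, plus) fell in reads with siFBL.
C16orf72: tttATTTAgtgcttaaaaaaaagATTTAaa
ZC3H10: agatgtccATTTAtaaatATTTAttaagag
KIF1C: ttgtttATTTAtttttATTTATTTAttttt
LSM3: tgtcttgtgaattATTTAaagtaagcatgt
SPRED1: ttaagaaagcATTTAtATTTAtatgacagc
The copies in these windows do not sort these fast and slow members: KIF1C holds 3 and LSM3 holds 1, beside 2 in C16orf72 and in ZC3H10. Over the whole intervals the order was another. ATTTA was at 2.96 per kb in C16orf72 and 1.95 in ZC3H10, beside 1.65 in KIF1C and 1.33 in LSM3. MOCS3 (1.62) and ZNF324 (0.914), which also lost label fast, lay below KIF1C. A few members picked for their slopes cannot show a relation with the motif.

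The next 3 are the last 30 bases of an interval, where the reads of a 3′ end library begin, with AATAAA or ATTAAA in capitals: BTG1 (chr12:92140278-92140307, minus strand), LRRC58 (chr3:120324509-120324538, minus) and MOCS3 (chr20:50963900-50963929, plus). BTG1 and LRRC58 had the most reads of all the long intervals. MOCS3 is shown because neither hexamer is in these letters.
BTG1: ccaagataggAATAAAaaaatgtagttcaa
LRRC58: atacatacATTAAAtatgtactaacattga
MOCS3: tattccagatacaatagaaatgtactctga

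Long intervals held more T than the 10370 shorter sole intervals, and more of them held each motif searched. Sequence was known for 1071 of the 1163 (92.1%) and 96.1% of the shorter ones. The median T content was 30.5% against 27.6%, and the median share of A or T was 58.9% against 55.2%. On the transcript's strand, counting overlapping matches, ATTTA was in 97.4% of the long intervals (median 9 copies, 2.04 per kb) and in 42.9% of the shorter ones. TATTTAT, which contains ATTTA, was in 62.3% against 14.0%, TGTANATA in 52.7% against 10.5% and AATAAA in 95.3% against 50.9%. A longer stretch has more places for a match, so these shares follow length in part. Per kb, ATTTA was at a median of 1.95 copies from 3000 to under 5000 bases and 2.16 from 5000 on, against 1.497 from 500 to under 1000 and 1.84 from 2000 to under 3000. For AATAAA the median was 0.871 per kb in the long intervals against 0.415 in all shorter ones, but it did not rise steadily with length. By band it was 0 under 500 bases, 1.48 from 500 to under 1000 and 0.922 from 1000 to under 2000. From 2000 to under 3000 it was 0.849, beside 0.863 and 0.905 in the 2 long bands. Over the last 40 bases, a window of the same size for all, AATAAA was in 591 of 912 long intervals (64.8%) and in 38.5% of the shorter ones. Among intervals with enough sequenced bases for the tests below, that gap was small, at 69.1% against 64.4%. A match describes the letters only.

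Of the 1163, 166 had no read in any of the 16 libraries. Loss of T>C was tested where at least 1000 sequenced T positions per library were covered on average, which 643 of the 1163 passed and 520 did not. The shorter sole intervals passed in 23.7% of cases against 55.3% of the long ones, with median levels of 13.1 and 15.6 reads per M mapped reads among those that passed.

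The libraries held 14.3 to 60.3 M mapped reads. Those of siFBL at 24 h stand apart: their headers spell the sample name with dots, unlike those of the other 14, and both have a lower T>C share over all intervals (0.259 and 0.269%) than the siCTRL libraries at 24 h (0.954 and 0.970%). Results that use them are therefore also given without them. FBL itself, the targeted gene, was covered by 2 to 54 reads per library with siCTRL and by 0 to 2 with siFBL. All 15 markers of C4-2 that were listed had on average at least 1 read per M mapped reads (RPM), among them KLK3, and their summed level was 2946 to 4112 RPM with siCTRL and 3619 to 7657 with siFBL, or at most 4222 without the siFBL libraries at 24 h. Of 7 HEK293T markers 3 reached that level (summed 25.7 to 37.2 and 21.4 to 30.5 RPM) and NEFM was at 0. None of 5 leukocyte markers did (summed at most 0.464 RPM). Of 5 fibroblast markers COL1A1 did (summed 20.6 to 47.4 and 25.2 to 39.9) with COL1A2 at 0. No marker is among the long intervals, and the part of these levels in the results was not tested.

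Label was lost over the chase from nearly all long intervals tested, with either siRNA. Pooled over the long intervals, T>C conversions made up 9.92 and 9.77% of sequenced T positions (A and B) with siCTRL at 0 h, 3.21 and 3.08% at 6 h, 1.29 and 1.26% at 12 h and 0.352 and 0.369% at 24 h. With siFBL the shares were 7.36 and 7.33%, 2.26 and 2.23%, 0.898 and 0.886%, and 0.152 and 0.161%. The siFBL pair lay below the siCTRL pair at every hour and the hours did not overlap. Pooled the same way over the shorter sole intervals, siCTRL libraries went from 7.01% in both at 0 h to 0.706 and 0.726% at 24 h, and siFBL libraries from 5.58 and 5.57% to 0.232 and 0.240%. Medians over intervals lay closer together: in siCTRL library A they were 9.73% for long and 9.26% for shorter intervals at 0 h, and 0.171 and 0.190% at 24 h. By median with siCTRL, the band from 2000 to under 3000 bases stood at 9.77% at 0 h and 0.205% at 24 h. That from 3000 to under 5000 was close to it (9.55 and 0.207%). Pooled shares were not computed by length band, so these medians do not show where the pooled gap lies.

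**Figure D1:**
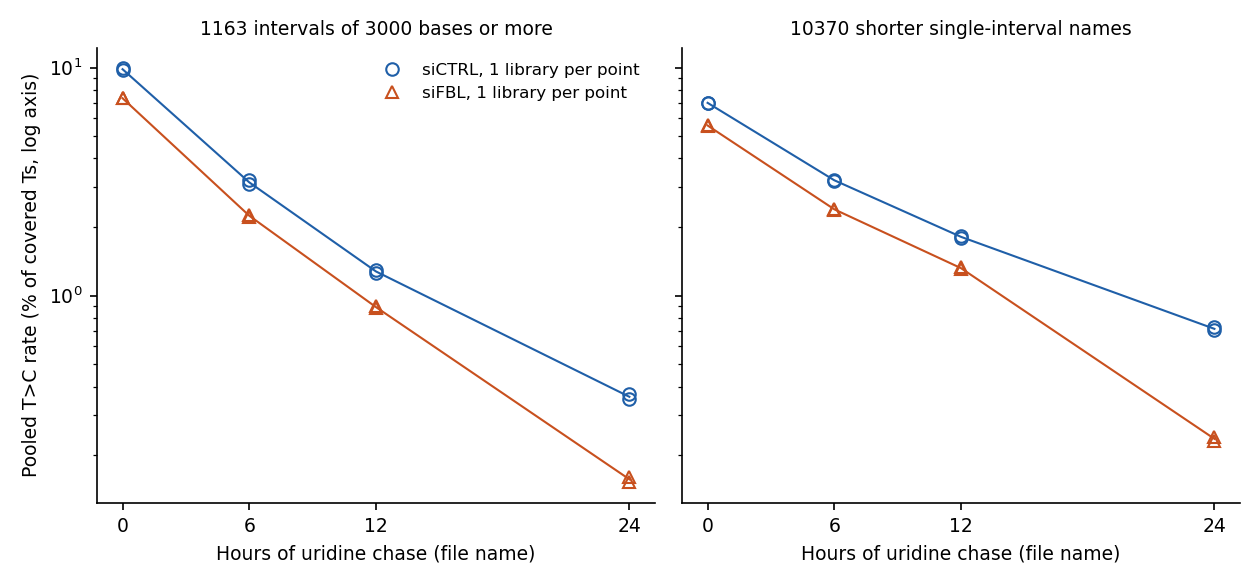
Pooled T>C rate (percent of covered T positions, log axis) against hours of chase for the long intervals and the shorter sole intervals; each point is a library, lines join the means of A and B for each siRNA. The long intervals start near 9.92% with siCTRL and 7.36% with siFBL and fall at each later hour.

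The rate of loss was fitted for each interval as a slope, the change in the log2 odds of a conversion per hour, with edgeR over all 11246 intervals tested. With siCTRL the median slope of the long intervals was −0.30 (quartiles −0.38 and −0.24), which would lower the odds to 50% in 3.30 h, beside −0.26 (3.86 h) over all intervals. With siFBL it was −0.30 (3.38 h) beside −0.27 (3.77 h). These times take the slope as constant over 24 h. Fitted over 0 to 12 h only, the siCTRL medians were steeper, at −0.33 and −0.27. At an edgeR adjusted p below 0.05, 642 of 643 fell with siCTRL (99.8%, against 97.8 percent of all intervals tested) and 641 with siFBL (99.7%, against 99.4 percent). None had a higher share at later hours, where the background was 0.0356 percent with siCTRL and 0.00889 percent with siFBL; at an unadjusted p under 0.05 edgeR also gave 0, and limma called 0 higher. The exceptions were RP11-179A9.4 with siCTRL (slope −0.05, edgeR adjusted p = 0.374), and CYRIA (−0.07, edgeR adjusted p = 0.345) and ITGA1 (−0.23, edgeR adjusted p = 0.0542) with siFBL, all 3 named after their values were seen. Without the siFBL libraries at 24 h, 627 fell with siFBL (against 91.6 percent of all intervals) and the median slope was −0.34. The gap between the medians of long and all intervals with siCTRL differed between fits: it was −0.04 here and −0.01 with limma, where the medians were −0.23 and −0.22, and −0.01 with an estimated dispersion. With siFBL the gaps were −0.03 and −0.01.

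Counting libraries without a model gave the same order. With siCTRL, both libraries at 0 h lay above both at 6 h in 627 of the 643 (97.5%, against 92.9 percent of all intervals), both at 6 h above both at 12 h in 551 (85.7%, against 83.1 percent), and both at 12 h above both at 24 h in 444 (69.1%, against 73.8 percent). With siFBL these counts were 626 (97.4%, against 92.4 percent), 502 (78.1%, against 76.1 percent) and 484 (75.3%, against 77.6 percent). The long intervals stood slightly above the background share at the first and second step and slightly below it at the last, with either siRNA. By 24 h, 113 of the 643 in library A and 61 in library B of siCTRL had no conversion left to count. With siFBL 55 and 34 had none. Over all 11246 intervals these counts were 2079 and 1175 with siCTRL and 890 and 658 with siFBL. The later part of the course thus rests on few conversions in many intervals, members or not.

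Loss did not go with length within the long intervals. Median slopes with siCTRL were −0.20 for sole intervals under 500 bases (816 tested), −0.28 from 500 to under 1000 bases (577), −0.30 from 1000 to under 2000 (644), −0.31 from 2000 to under 3000 (417), −0.31 from 3000 to under 5000 (414) and −0.30 from 5000 bases on (229). Across the 643 long intervals Spearman's rho between length and slope was 0.03, beside −0.28 over all intervals, in which the shortest sole intervals were the slowest. These are relations across intervals that share libraries, not across samples. The density of ATTTA did not order the slopes either (rho 0.01 over 602 members with sequence). In 4 groups of 150 or 151 members, from the fewest ATTTA per kb to the most, the median slopes were −0.30, −0.31, −0.30 and −0.29, while the median T content rose from 25.8 to 34.98%. TGTANATA density (rho −0.06) and T content (0.01) gave values near 0 as well.

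**Figure D2:**
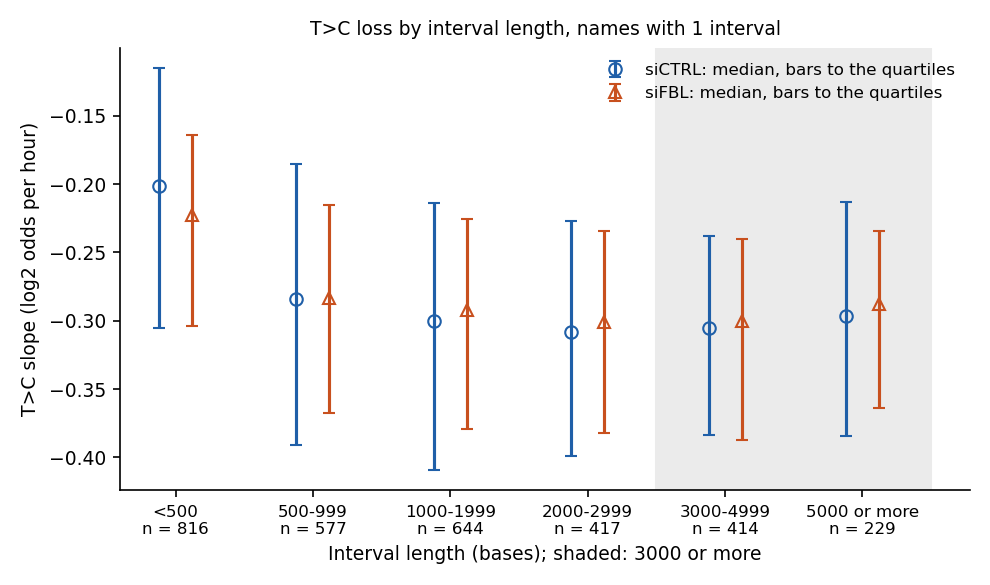
T>C slope (log2 odds per hour, siCTRL and siFBL) against length band of the sole intervals, as medians with bars from the lower to the upper quartile; the shaded bands are the long intervals. The median with siCTRL moves from −0.20 under 500 bases to −0.31 from 2000 to under 3000 and stays near −0.30 beyond.

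Among the 8 long intervals with the most reads, label ran down at very different speeds. BTG1 (chr12:92140278-92144079, minus strand, 3802 bases, 3′ UTR), an antiproliferative protein that brings the CCR4-NOT deadenylase to mRNAs, held 6.93 and 6.94% T>C with siCTRL at 0 h, 1.06 and 1.17% at 6 h, 0.358 and 0.364% at 12 h and 0.199 and 0.172% at 24 h (slope −0.34). STC2 (chr5:173314723-173317846, minus, 3124 bases, 3′ UTR), the secreted glycoprotein stanniocalcin 2, went from 7.09 and 6.86% to 0.790 and 0.622%, 0.117 and 0.128%, and 0.0642 and 0.0485% (slope −0.48). LRRC58 (chr3:120324509-120331199, minus, 6691 bases, 3′ UTR), a leucine-rich repeat protein, went from 10.6 and 10.2% to 4.14 and 4.13%, 1.84 and 1.83%, and 0.405 and 0.289% (slope −0.22). LRRC58 thus kept more label at 6 and 12 h than BTG1 or STC2 in both libraries. The others were PPP2CA, the catalytic subunit of protein phosphatase 2A (−0.30), SLC7A11, the cystine antiporter (−0.34), DYNLL2, a dynein light chain (−0.32), LARP1, which binds mRNAs of the translation machinery (−0.28), and EIF5AL1 (−0.07). EIF5AL1 is a near-identical copy of the translation factor gene EIF5A, so its reads may belong to that gene.

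The 5 steepest slopes among members with at least 3000 covered T positions on average were those of ZC3H10, a CCCH zinc finger protein (−0.81, SE 0.07), MOCS3, which activates sulfur for molybdopterin and tRNA thiolation (−0.68, SE 0.05), C16orf72 (−0.64, SE 0.04), the zinc finger protein ZNF324 (−0.63, SE 0.05) and EXT1, a polymerase of heparan sulfate (−0.62, SE 0.04). C16orf72 (chr16:9116913-9121635, plus strand, 4723 bases, 3′ UTR) held 10.7 and 9.79% T>C with siCTRL at 0 h, 0.349 and 0.526% at 6 h, 0.138 and 0.0746% at 12 h and 0.0372 and 0.135% at 24 h. MOCS3 (chr20:50960226-50963929, plus, 3704 bases, 3′ UTR) went from 8.15 and 8.44% to 0.379 and 0.0985% at 6 h. Nearly all of the drop fell between 0 and 6 h, and values from 12 to 24 h overlapped in both. ZC3H10 (chr12:56121868-56127514, plus, 5647 bases, 3′ UTR) went from 8.22 and 6.96% to 0.0462 and 0.376% at 6 h and had 0 conversions in all 4 siCTRL libraries at 12 and 24 h; with 3 counts as the limit that 0 allows, the 12 h libraries still allow 0.108 and 0.0498%. Such limits cover counting error only, and T positions on 1 read are not independent.

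The flattest were TAF10 (−0.05, SE 0.01), a subunit of the general transcription factor TFIID, RP5-1014D13.2 (−0.07, SE 0.01), EIF5AL1 (−0.07, SE 0.01), LSM3 (−0.08, SE 0.01), a subunit of the Lsm rings of U6 snRNA and of mRNA decapping, and KIF1C (−0.09, SE 0.01), a kinesin. LSM3 (chr3:14198117-14201122, plus strand, 3006 bases, 3′ UTR) held 9.47 and 8.93% T>C with siCTRL at 0 h, 7.55 and 6.85% at 6 h, 5.69 and 5.42% at 12 h and 1.72 and 2.35% at 24 h. KIF1C (chr17:5024152-5028401, plus, 4250 bases, 3′ UTR) went from 7.15 and 6.11% to 5.07 and 5.22%, 3.46 and 3.71%, and 1.07 and 1.67%. At 12 h, each of these values lies above those of every fast member named at 6 h. TAF10 (chr11:6606294-6610921, minus, 4628 bases) is placed in an exon of a noncoding transcript, and RP5-1014D13.2 (chr22:37876148-37895563, plus, 19416 bases), not named in GENCODE v29, overlaps the translation initiation gene EIF3L, so the values of both may include reads of other transcripts.

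**Figure D3:**
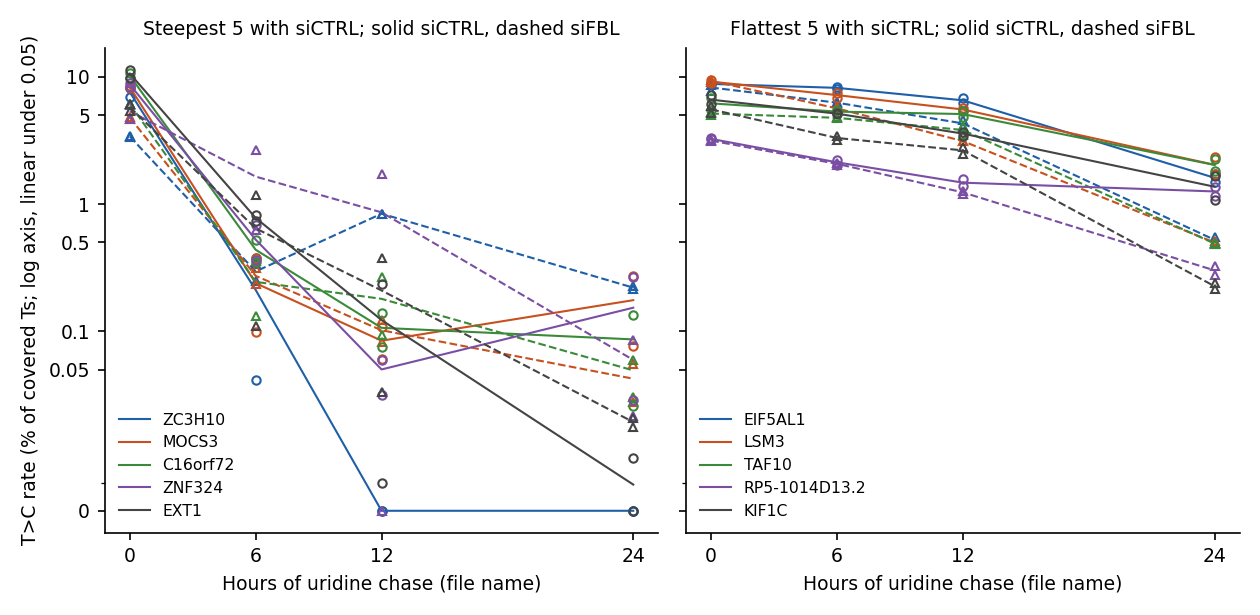
T>C rate (percent of covered T positions, log axis, linear under 0.05) against hours of chase for the 5 members with the steepest (left) and the flattest (right) slope with siCTRL; points are libraries, lines join means, solid for siCTRL and dashed for siFBL. C16orf72 was under 1% in each siCTRL library at 6 h, while LSM3 was still above 5% at 12 h.

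By list, median slopes of gene regulators with long intervals were steeper than that of transporters. Transcription factors, which hold 63 of the long intervals (5.42%, against 3.09% of all names), had a median slope of −0.42 with siCTRL over 45 tested (range −0.72 to −0.19), beside −0.39 for all listed transcription factors tested. ZKSCAN2 (−0.72) and ZNF597 (−0.61) were among the steepest and NR1D2 (−0.19), a nuclear receptor of the clock, the flattest. Ubiquitin pathway genes (28 tested) had a median of −0.36 beside −0.30 for all listed, chromatin regulators (12) −0.37 beside −0.33, RNA-binding proteins (15) −0.34 beside −0.28, kinases (15) −0.33 beside −0.30 and adhesion and guidance receptors (11) −0.32 beside −0.22. Solute carriers (15) had −0.26 beside −0.25, small GTPases and their regulators (19) −0.30 beside −0.29 and phosphatases (6) −0.31 beside −0.30. The Wnt receptors FZD1 (−0.55) and FZD5 (−0.51) were steeper than the integrins ITGA1 (−0.18) and ITGA2 (−0.14) of the same list. Of 4 tested members known for short-lived mRNAs the median was −0.49, beside −0.45 for all 76 listed that were tested. SERTAD2 and IER5 were both at −0.53. These medians describe the lists and carry no test.

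Beside siCTRL, the T>C share with siFBL was lower at the start of the chase in most long intervals. Both siFBL libraries lay below both siCTRL libraries in 523 of 643 at 0 h (81.3%, against 77.7 percent of all intervals), 361 at 6 h (56.1%, against 56.5 percent), 273 at 12 h (42.5%, against 45.0 percent) and 324 at 24 h (50.4%, against 52.5 percent). They lay above in 3 at 0 h (against 1.53 percent), 32 at 6 h (against 3.99 percent), 34 at 12 h (against 5.57 percent) and 47 at 24 h (against 7.87 percent). The members followed the background at each hour. In bulk samples, fewer cells of a kind and less RNA or label per cell cannot be told apart.

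The speed of loss differed between the siRNAs in few long intervals, and hardly at all once the siFBL libraries at 24 h were set aside. At an edgeR adjusted p below 0.05, 6 of 643 lost label more slowly with siFBL (0.933%, against 0.249 percent of all intervals) and 14 faster (2.18%, against 5.45 percent), and the median difference of slopes was −0.01 beside −0.02. Counted as reads with T>C in place of conversions, the median difference was 0.05 beside 0.03 over all intervals, so its direction depends on the measure. Over 0 to 12 h only, 0 were called slower (against 0.00889 percent) and 1 faster (0.156%, against 0.133 percent), LSM3, with 17 and 38 at an unadjusted p under 0.05; limma, over all hours, called 2 slower and 34 faster (0.213 and 8.8 percent of all intervals). Without both siFBL libraries at 24 h, edgeR called none in either direction (against 0 and 0.0356 percent of all intervals), with 7 slower and 36 faster at an unadjusted p under 0.05. Without library A or B of siFBL at 24 h alone, 1 was called slower in each case (against 0.0178 percent) and 2 or 1 faster (against 1.57 and 0.507 percent). The 14 were LSM3, KIF1C, TMED10, TMEM167A, FUNDC2, TAF10, RP5-1014D13.2, VTI1B, EIF5AL1, SP1, NUDT3, SLC30A4, PERP and UBXN2B. They include the 5 flattest slopes named above, but the siCTRL slope is a term of the difference, so a flat one favours a negative difference. Of the 20 called either way, 3 had the other sign without both siFBL libraries at 24 h. TMED10, a cargo receptor of vesicles (−0.07), the SNARE protein VTI1B (−0.06) and the Golgi protein TMEM167A (−0.08) were not called over 0 to 12 h.

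LSM3 was the clearest case. With siFBL it held 9.53 and 9.09% T>C at 0 h, 5.76 and 5.56% at 6 h, 3.12 and 3.14% at 12 h and 0.484 and 0.514% at 24 h, so that the groups overlapped at 0 h and siFBL lay below siCTRL at each later hour. Its slope was −0.16 with siFBL against −0.08 with siCTRL (difference −0.09, SE 0.01, edgeR adjusted p = 0.00204), and the difference over 0 to 12 h was −0.07 (edgeR adjusted p = 0.006). KIF1C with siFBL fell from 5.92 and 5.21% to 3.41 and 3.21%, 2.82 and 2.47%, and 0.214 and 0.238% (difference −0.09, edgeR adjusted p = 0.00633), but −0.03 over 0 to 12 h (edgeR adjusted p = 0.672). TAF10 differed by −0.09 (edgeR adjusted p = 0.0156) and by 0.02 without the siFBL libraries at 24 h. By size of the difference, the largest of the 14 were SP1 (−0.31, edgeR adjusted p = 0.036), the GC-box transcription factor, FUNDC2 (−0.11), a protein of the outer mitochondrial membrane, and UBXN2B (−0.09), an adaptor of the p97 ATPase.

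The 6 slower ones were ZC3H10, TMEM170B, ZNF324, ZBTB24, ZNF813 and NOM1. ZC3H10 with siFBL held 3.39 and 3.42% T>C at 0 h, 0.250 and 0.341% at 6 h, 0.840 and 0.842% at 12 h and 0.214 and 0.227% at 24 h, on 800 or more covered T positions per library (difference 0.64, SE 0.11, edgeR adjusted p = 0.00255). It thus started below siCTRL and lay above it at 12 and 24 h, where siCTRL had no conversion. ZNF324 with siFBL held 2.66 and 0.631% at 6 h and 1.72 and 0% at 12 h, and these replicates lay further apart than the siRNAs did (difference 0.36, edgeR adjusted p = 0.0448; −0.03 with limma). TMEM170B, a membrane protein, had 1.44 RPM on average and 6.54 and 0.624% with siFBL at 6 h (difference 0.49, edgeR adjusted p = 0.0338). The others were ZBTB24 (0.26), NOM1 (0.22), a nucleolar protein, and ZNF813 (0.24), whose difference over 0 to 12 h was 0.00.

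Read numbers over the long intervals moved with siFBL about as often as over all intervals. With hour as a term, 712 members passed the low-count filter, 49 rose (6.88%, against 6.61 percent of 13130 intervals tested), 60 fell (8.43%, against 6.64 percent) and 603 were not called; the median log2 change was −0.03 beside −0.01. All 109 called members kept their sign without the siFBL libraries at 24 h, and 79 of them were called again, while the counts over all members became 76 higher and 69 lower of 723 (9.62 and 8.49 percent of all intervals). The remaining libraries are part of those that picked the 109, so a kept sign is no independent support. How many of all called intervals were called again was not counted. The long intervals took 2.63% of the reads of the most-read interval per name in both siFBL libraries at 24 h and 2.82 to 3.24% in the other 14. Hour by hour, both siFBL libraries lay above both siCTRL libraries in 278 of the 712 at 0 h (39.0%, against 35 percent), 189 at 6 h (26.5%, against 28.0 percent), 124 at 12 h (17.4%, against 18.7 percent) and 207 at 24 h (29.1%, against 36.5 percent). They lay below in 145 (20.4%, against 20.4 percent), 146 (20.5%, against 20.7 percent), 221 (31.0%, against 29.2 percent) and 348 (48.9%, against 40.1 percent), so the members stood furthest from the background at 24 h.

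Among the falls, NKAP (chrX:119920672-119925219, minus strand, 4548 bases, 3′ UTR), a nuclear RNA-binding protein, held 10.6 and 13.01 RPM with siCTRL at 0 h, 15.3 and 11.6 at 6 h, 10.9 and 10.5 at 12 h and 8.85 and 9.53 at 24 h. With siFBL it held 5.94 and 5.92, 5.52 and 7.59, 6.48 and 2.84, and 5.56 and 5.69 (log2 −0.99, SE 0.15, edgeR adjusted p = 0.000525). The siFBL libraries lay below the siCTRL libraries at every hour. SPRED1 (chr15:38351665-38357249, plus, 5585 bases, 3′ UTR), an inhibitor of Ras to MAP kinase signalling, held 16.1 and 14.1 RPM with siCTRL at 0 h and 21.4 and 20.8 at 24 h, against 7.33 and 7.005 and then 6.88 and 7.01 with siFBL (log2 −0.98, SE 0.12, edgeR adjusted p = 7.77e-05). ATXN7L3B (chr12:74538407-74545430, plus, 7024 bases, 3′ UTR), a paralogue of a deubiquitinase subunit of the SAGA complex, held 82.4 and 74.1 against 39.2 and 40.04 at 0 h (log2 −0.84, edgeR adjusted p = 1.1e-05). LSM3 held 259 and 254 RPM at 0 h with siCTRL and 141 in both siFBL libraries, and 160 and 140 against 88.9 and 82.7 at 24 h (log2 −0.74, SE 0.06, edgeR adjusted p = 1.3e-06; −0.73 without the siFBL libraries at 24 h). All 3 were lower with siFBL at each hour without overlap.

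CLIC4, an intracellular chloride channel protein (log2 −0.83, edgeR adjusted p = 0.0083), and SGTB, a co-chaperone (log2 −0.72, edgeR adjusted p = 0.0329), leaned on the last hour. CLIC4 held 56.1 and 59.6 RPM with siCTRL at 24 h against 14.9 and 13.8 with siFBL, but 18.4 and 19.9 against 15.7 and 15.2 at 6 h. Without the siFBL libraries at 24 h it stood at log2 −0.45 and was still called (edgeR adjusted p = 0.00131), while SGTB stood at −0.34 and was not (edgeR adjusted p = 0.121). BTG1 (−0.34) and PPP2CA (−0.28) fell by less, and SLC7A11 (−0.20) and STC2 (−0.25) were not called; both of the latter turned to 0.05 and 0.06 without the siFBL libraries at 24 h.

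Among the rises, MBOAT2 (chr2:8852690-8858678, minus strand, 5989 bases, 3′ UTR), an acyltransferase of lysophospholipids, held 61.8 and 66.5 RPM with siCTRL at 0 h, 83.6 and 91.2 at 6 h, 120.5 and 121.2 at 12 h and 123.4 and 138.3 at 24 h. With siFBL it held 121 and 106, 142 and 146, 187 and 197, and 308 and 294 (log2 0.85, SE 0.08, edgeR adjusted p = 3.72e-06). The pairs did not overlap at any hour, and the level climbed over the chase with either siRNA. RAB3B (chr1:51907956-51919926, minus, 11971 bases, 3′ UTR), a GTPase of secretory vesicles, held 23.02 and 23.11 against 36.99 and 32.46 at 0 h and 38.7 and 39.3 against 92.8 and 84.6 at 24 h (log2 0.73, SE 0.10, edgeR adjusted p = 0.00018). SFXN2 (chr10:102737763-102743492, plus, 5730 bases, 3′ UTR), a mitochondrial carrier, held 12.3 and 13.1 against 18.9 and 18.1 at 0 h, overlapped at 6 h (6.39 and 12.6 against 15.2 and 12.4), and held 7.33 and 3.68 against 33.2 and 34.5 at 24 h (log2 0.95, SE 0.29, edgeR adjusted p = 0.0384). Without the siFBL libraries at 24 h SFXN2 stood at log2 0.43 (edgeR adjusted p = 0.0465). The aminopeptidase RNPEPL1 (0.73), the JNK scaffold MAPK8IP2 (0.71) and ELFN2 (0.69), a transmembrane regulator of protein phosphatase 1, rose too. At 24 h they held 46.3 and 46.0, 53.8 and 54.0, and 18.9 and 19.8 RPM with siFBL against 21.4 and 24.6, 15.6 and 20.4, and 6.91 and 7.73 with siCTRL. ELFN2 stood at 0.43 without the siFBL libraries at 24 h and was not called (edgeR adjusted p = 0.0695).

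**Figure D4:**
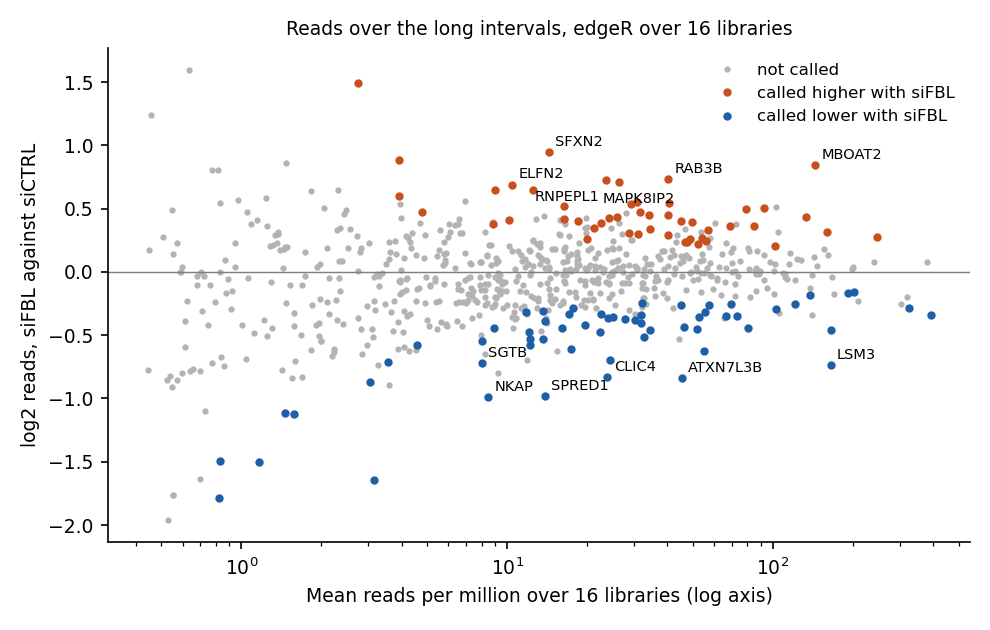
log2 change of reads, siFBL against siCTRL, against mean RPM (log axis) for the 712 long intervals tested; orange points were called higher and blue points lower by edgeR over 16 libraries. The 49 rises and 60 falls lie on both sides of 0 over the whole range of levels, with MBOAT2 and LSM3 among the most abundant.

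Counted by list, the calls for reads were few, and are to be read against the 6.61 percent higher and 6.64 percent lower of all intervals. Small GTPases and their regulators had 3 rises (RAB36 0.89, RAB3B 0.73, ARFGEF3 0.36) and 3 falls (RAB21 −0.45, ARL3 −0.45, RAB22A −0.32) among 19 tested. Kinases had 3 rises (CDK19 0.50, the growth factor receptor IGF1R 0.48, PIK3C2A 0.45) and 2 falls (PRKAB2 −0.38, PAK2 −0.34) among 15. Ubiquitin pathway genes had 2 rises (USP9X 0.33, CAND1 0.22) and 3 falls (PELI2 −1.12, TRIM44 −0.62, OTUD7B −0.46) among 32. Transcription factors had 3 rises (ONECUT2 0.39, ZFHX3 0.36, SOX12 0.20) and 0 falls among 46, and solute carriers 2 rises (the glucose carrier SLC2A12 1.49, the zinc carrier SLC30A9 0.40) and 1 fall (the arginine carrier SLC7A1 −0.46) among 17. Of 4 members known for short-lived mRNAs, SPRED1 (−0.98), IER5 (−0.48) and BTG1 (−0.34) fell. RNA-binding proteins had 1 fall, LSM3, among 15, phosphatases 1, PPP2CA, among 7, adhesion receptors 1 rise, NECTIN1 (0.42), among 11, and edgeR called none of 12 chromatin regulators (0 higher and 0 lower at an unadjusted p under 0.05).

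In RIP, RNAs of the long-interval genes lay higher relative to input than RNAs did in general. Of 701 tested, 363 were called higher in RIP (51.8%, against 39.9 percent of 14967 RNAs) and 227 lower (32.4%, against 43.0 percent), with a median log2 of 0.30 beside −0.11. Direction depends on the scaling here. Scaled by library totals in place of trimmed means, the median of all RNAs shifted by −0.94 to −1.05 and that of the members to −0.64, with 173 members higher and 448 lower (18.6 and 69.7 percent of all RNAs). The gap between the medians was 0.41 under both scalings. Without a control antibody or a RIP after siFBL, a higher level in RIP does not show binding by FBL. In counts scaled to library totals (CPM), C16orf72 went from 31.3 and 30.3 in input to 85.9 and 83.0 in RIP, LRRC58 from 230.0 and 194.5 to 449.7 and 440.8, ATXN7L3B from 92.0 and 92.9 to 188.8 and 173.4 and DYNLL2 from 41.3 and 43.0 to 86.4 and 80.4, so these 4 were higher on either scale. LSM3 went from 57.1 and 49.5 to 4.57 and 5.05, and FUNDC2 from 88.3 and 92.0 to 12.2 and 11.6, lower on either scale. BTG1 held 141.5 and 128.9 CPM in input and 82.6 and 78.6 in RIP, lower by totals, although its log2 was 0.20 with trimmed means. Across members, RIP and T>C slope had a rho of −0.25 (n = 575), and −0.24 over all intervals (9848).

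The C4-2 time course gave a second view of loss that uses no label. Its slope is the log2 change of level per hour relative to the rest of the library. With siCTRL, 308 of 908 long-interval genes fell over 0 to 12 h (33.9%, against 18.6 percent of 23437 genes) and 108 rose (11.9%, against 15.4 percent), with a median slope of −0.03 beside 0.00. By library totals 391 fell and 35 rose, where all genes stood at 25.6 and 6.69 percent. Across the 577 members in both assays, Spearman's rho between this slope and the T>C slope with siCTRL was 0.73, and 0.76 over all 10016 genes in both. MOCS3 went from 23.3 and 24.0 CPM at 0 h to 0.109 and 0.146 at 12 h, and C16orf72 from 34.6 and 37.9 to 1.60 and 2.14. LSM3 rose from 104 and 92.1 to 176.5 and 159.7, and TAF10 from 128.4 and 133.0 to 236.0 and 243.0, relative to the rest of the library. BTG1 was the member of the 8 most abundant with the steepest slope (−0.60), from 472 and 518 CPM at 0 h to 74.1 and 88.0 at 3 h and 2.87 and 2.16 at 12 h, whereas its T>C slope was −0.34 beside a median of −0.30. Unlike the time course, the T>C slopes set beside it here cover 0 to 24 h. Over 0 to 12 h, the T>C slope of BTG1 with siCTRL was −0.40 beside a member median of −0.33. SLAM-seq reads of BTG1 stayed at 329 to 595 RPM with siCTRL over the chase.

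**Figure D5:**
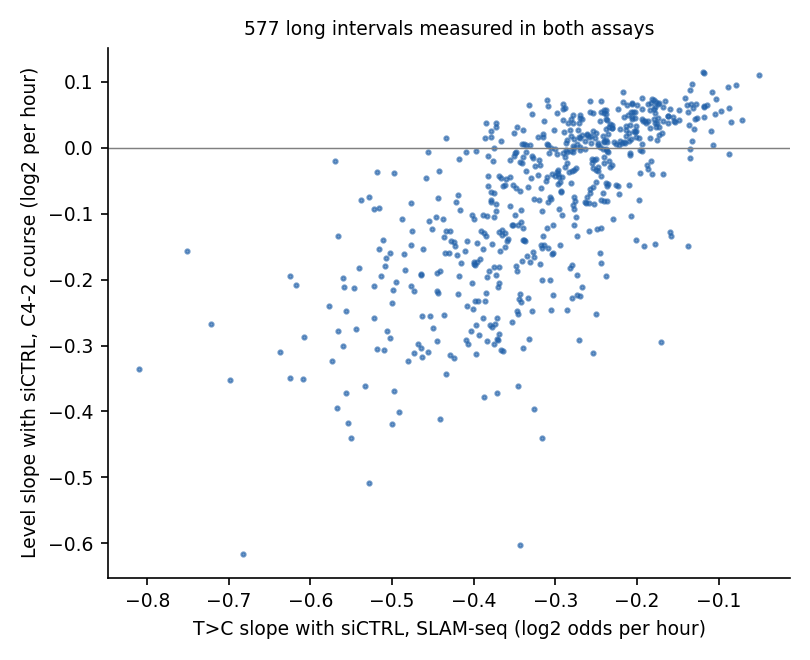
Level slope with siCTRL in the C4-2 time course (log2 per hour) against T>C slope with siCTRL in SLAM-seq (log2 odds per hour); each point is 1 of 577 long intervals measured in both. The points run from lower left (MOCS3 at −0.68 and −0.62) to upper right (TAF10 at −0.05 and 0.11), with rho 0.73.

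At 0 h of that course, siFBL against siCTRL gave 12 higher (1.32%, against 1.61 percent) and 61 lower (6.72%, against 6.87 percent) among 908 members, shares near the background. The median log2 was −0.14 beside 0.04 over all genes. FBL, the targeted gene, held 310.7 and 289.1 CPM with siCTRL at 0 h and 4.859 and 3.255 with siFBL. The siFBL columns of this course differ by replicate number in the same way at every hour: over 10069 genes above 5 CPM, differences between the replicates correlated between hours at 0.686 to 0.816 with siFBL and at −0.141 to 0.255 with siCTRL. NKAP held 27.88, 30.19, 23.79 and 19.63 CPM in siFBL replicate 1 at 0, 3, 6 and 12 h and 6.248, 6.504, 4.357 and 2.449 in replicate 2, beside 22.22 to 34.32 with siCTRL. MAPK8IP2 held 98.44 to 124.5 and 198.3 to 228.1, beside 69.94 to 86.55. Of 509 members at that level, 5 were at least 2-fold lower in siFBL replicate 2 at all 4 hours (0.982%, against 0.675 percent of those genes). Without the siFBL columns of replicate 1, 55 members were called higher and 224 lower (against 7.39 and 17.7 percent), and without those of replicate 2, 51 and 272 (against 5.94 and 21.0 percent), where the lone siFBL column at 0 h is taken to vary like the other groups. By library totals the median of all genes shifted by 0.25 and the counts were 33 higher and 25 lower (5.19 and 3.72 percent of all genes), so the direction of this balance depends on the scaling. Of the 109 members called for reads in SLAM-seq, 98 were tested here, 64 had the same sign, and 7 were called with the same sign: MXD4, a MAX-binding repressor (0.50 in SLAM-seq and 0.72 here), ELFN2 (0.69 and 1.11), SLC2A12 (1.49 and 1.03), the splicing factor PRPF38A (−0.25 and −0.87), the thioredoxin-like TMX1 (−0.33 and −0.79), TMED8 (−0.39 and −1.74) and TSR2 (−0.35 and −0.67), a chaperone of a small ribosomal subunit protein. ARFGEF3, CAND1 and LIN7A were called with the other sign. How often all intervals kept their sign between the assays was not counted. Spearman's rho between both log2 changes was 0.26 across 621 members and 0.27 over all 11221 intervals in both, so the members were near the background. LSM3 held 104 and 92.1 CPM with siCTRL against 87.9 and 53.5 with siFBL at 0 h, a difference that was not called (log2 −0.75, edgeR adjusted p = 0.065), and ATXN7L3B held 127.8 and 123.8 against 125.2 and 50.5, the siFBL replicates lying further apart than the groups.

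The 5 longest intervals with enough coverage were HELLPAR (chr12:102197585-102402596, plus strand, 205012 bases), a long noncoding RNA, CTA-941F9.10 (chr22:45657019-45680130, plus, 23112 bases), ARIH1 (19695 bases), a ubiquitin ligase that works with cullins, RP5-1014D13.2, and TTC7B (16804 bases), a subunit of the complex of phosphatidylinositol 4-kinase alpha. HELLPAR had 2.29 RPM on average and went from 10.3 and 13.7% T>C at 0 h with siCTRL to 0.781 and 0% at 24 h; at 537 covered T positions, 0 allows 0.559%. ARIH1 (chr15:72583293-72602987, plus, 3′ UTR) went from 8.83 and 8.64% to 1.45 and 1.57% at 6 h, 0.697 and 0.457% at 12 h and 0.0836 and 0.136% at 24 h, with a slope of −0.37 under either siRNA. TTC7B (chr14:90524564-90541367, minus, 3′ UTR) was slower (−0.18), with replicates far apart at 6 h (0.905 and 5.19%). HELLPAR, ARIH1 and RP5-1014D13.2 overlap other names.

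Close to the limit of 3000 bases, the median slope with siCTRL was nearly the same on both sides and other medians were not. The 39 intervals that reach or pass it by less than 50 bases, 25 of them with coverage, had median slopes of −0.31 with siCTRL and −0.33 with siFBL, and the 31 that miss it by 50 bases or fewer, 19 with coverage, −0.30 and −0.28. Median T>C shares at 0 h with siCTRL were 9.66% inside and 10.6% outside, those at 24 h 0.201 and 0.289%, the median T content 31.1 and 28.5% and the median log2 change of reads with siFBL −0.14 and −0.01. Those with the most reads were LSM3 (3006 bases, −0.08) and ZNF770 (3018 bases, −0.32) inside, and CEBPG (2994 bases, −0.44), a bZIP transcription factor, and XPOT (2994 bases, −0.13), the exportin of tRNA, outside, so fast and slow intervals stood on each side.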

How the data were processed

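For SLAM-seq the authors deposited, for each interval, counts of reads, of covered T positions and of conversions. Per the file headers these come from slamdunk (version 0.4.3); hg38 and Trim Galore are named in the submitters' processing notes. The deposited CPM column, treated as a score, gave the mapped reads of each library and nothing else. RIP and time-course values are deposited whole-number counts per gene symbol; TopHat2 2.1.1 and HOMER are named without a role in those notes. Columns of the time course match groups, not single samples. Strand use in counting those tables is not stated.

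For each name, the interval with most reads over all libraries entered the fits. Reads and gene counts were fitted with edgeR 4.0.16 in R 4.3.3 (trimmed means, default low-count filter, quasi-likelihood test), with hour and siRNA for SLAM-seq reads; Benjamini-Hochberg adjustment ran over all features tested and adjusted p below 0.05 was called. T>C loss was fitted as converted against unconverted positions with a term per library, at a mean coverage of at least 1000, with dispersion 0 and a quasi-dispersion per interval. An estimated dispersion had been planned. It was replaced after its calls were seen. The reason noted was fewer false calls on simulated data, but a count is given only for the fit used here (13 of 11046 unchanged intervals). The simulated variance was a fixed multiple of the mean, the form that the fit used here assumes. Those data thus favour that fit and cannot decide between it and the estimated dispersion, whose false calls are not given here. On the simulated data a slope difference of 0.1 per hour was found in 70% and one of 0.05 in 37%. All simulated intervals had the same siCTRL slope, flatter than the measured siCTRL medians of −0.30 (members) and −0.26 (all intervals). More conversions therefore remained at late hours, so these shares may be too high for the measured intervals. For reads, changes of log2 1 put into simulated counts were found in 100% and of 0.5 in 78.8%, with 4 false calls of 13154. Alternatives covered scaling, filters, tools, hours, coverage, replicate numbers and each library left out. Library totals, the estimated dispersion, the siFBL libraries at 24 h left out, reads over 0 to 12 h, and for the time course the replicate block and siFBL columns left out by replicate were chosen after seeing the data. Replicate numbers did not pair the SLAM-seq libraries (correlations of deviations −0.01 to 0.09), nor siCTRL with siFBL in the time course (−0.111 to 0.0814). The members, lists and comparisons were chosen with earlier results of these data known.

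Named members are the 8 with the most reads, the 6 largest rises and falls among called members at 5 or more RPM (reads scaled to mapped reads), the 5 steepest and 5 flattest slopes at a coverage of at least 3000, up to 3 slope differences each way, the 5 longest, and 2 on either side of the length limit. List members, further called members and pairs named beside them were picked after their values were seen. HEK293T and nanopore libraries were not used here.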

Additional observations from a re-analysis of the deposited data

Results flagged for a closer look

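In 3 of 78 sets of 8 libraries (1 named interval, 1 siRNA), 1 library lay far from the rest, where chance gives about 1 in 20 sets. NKAP held 2.84 RPM (reads scaled to mapped reads) with siFBL in library B at 12 h, and the next lowest was 5.52. CLIC4 held 27.1 with siFBL in the same library, and the next highest was 16.9. TMEM170B held 2.78 with siFBL in library A at 0 h, and the next highest was 1.64. The sets span 4 hours, so a difference between hours can also set a library apart.

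The T>C slope differed between siFBL and siCTRL by the edgeR test of the difference in 11 named members. These were named for this difference or for a steep or flat siCTRL slope, so their number follows from that choice. Over all intervals tested, 0.249 percent were called slower and 5.45 percent faster. Loss was faster with siFBL in SP1 (−0.31), FUNDC2 (−0.11), UBXN2B (−0.09), LSM3 (−0.09), KIF1C (−0.09), TAF10 (−0.09), EIF5AL1 (−0.08) and RP5-1014D13.2 (−0.07). It was slower in ZC3H10 (0.64), TMEM170B (0.49) and ZNF324 (0.36). Over 0 to 12 h LSM3 was the sole one still called, and without both siFBL libraries at 24 h none was.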

How the results depend on the processing

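Replaced by the labelled hour, the file-name hour left no T>C loss called (0 with either siRNA, 0 slope differences each way, as over all intervals). Reads then had 1 rise and 6 falls (against 0.388 and 0.663 percent of all intervals). With no hour term these were 0 and 4 (against 0.32 and 0.541 percent). A replicate block gave 18 and 24 (against 3.02 and 3.0 percent). Over 0 to 12 h, 85 members rose in reads (against 11.0 percent of all intervals). Without both siFBL libraries at 24 h 76 did (against 9.62 percent). DESeq2 gave 91 falls (against 8.98 percent). Slope differences, slower and faster, were 0 and 1 over 0 to 12 h (against 0.00889 and 0.133 percent of all intervals). Without the siFBL libraries at 24 h they were 0 and 0 (against 0 and 0.0356 percent). An estimated dispersion gave 3 and 36 (against 0.258 and 10.3 percent) and limma 2 and 34 (against 0.213 and 8.8 percent). Reads with T>C gave 2 and 1 (against 0.187 and 1.49 percent). The replicate block gave 4 and 10 (against 0.142 and 4.39 percent). In RIP, library totals gave 173 higher and 448 lower (against 18.6 and 69.7 percent of all RNAs). A replicate block there gave 365 and 233 (against 40.3 and 43.5 percent). At 0 h of the time course, DESeq2 gave 33 higher and 162 lower, its size factors in edgeR 120 lower, library totals 33 and 25, a replicate block 101 lower, and leaving out all siFBL columns of replicate 1 or 2 gave 55 and 224 or 51 and 272. Of all genes at 0 h of the time course, DESeq2 called 3.99 percent higher and 13.0 percent lower. Its size factors in edgeR gave 10.2 percent lower, and the replicate block 9.09 percent lower. Library totals gave 5.19 percent higher and 3.72 percent lower. Rises over that course with siCTRL were 35 by library totals (against 6.69 percent of all genes). The cause of these shifts was not tested.

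Leaving out each library in turn gave 38 to 44 rises and 36 to 55 falls in reads (36 without siFBL 24 h library B, 39 without A), 635 to 642 and 628 to 642 T>C losses with siCTRL and siFBL with 0 gains, 1 to 9 slower and 1 to 14 faster slopes (1 slower without siCTRL 0 h library B or either siFBL library at 24 h, 2 without siCTRL 0 h A, 6 h B or 12 h B, 3 without siCTRL 6 h A; 8 and 5 faster without siCTRL 0 h A or B, 9 without either at 12 h, 2 and 1 without siFBL 24 h A or B), 351 to 366 higher and 213 to 229 lower in RIP, 1 to 18 higher and 15 to 126 lower at 0 h of the time course (15 and 38 without siCTRL 0 h library A or B, 23 without siFBL 0 h library A, 126 without either siFBL library at 12 h; 1 higher without siCTRL 0 h A and 4 without siFBL 0 h B), and 75 to 119 rises and 274 to 322 falls over it.

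Shares over all intervals moved too with each library left out. For reads they were 5.36 to 6.1 percent higher and 4.5 to 5.96 percent lower. Slope differences were called slower in 0.0178 to 0.614 percent and faster in 0.507 to 6.51 percent. At 0 h of the time course, the share of all genes called lower was also smallest without siCTRL 0 h library A. It was largest without either siFBL library at 12 h. Signs turned as follows. The log2 change of reads stood at 0.0529 for SLC7A11 and 0.0656 for STC2 over 0 to 12 h, and at 0.046 and 0.0586 without the siFBL libraries at 24 h. Under the labelled hour, with none called, the siCTRL slope was 0.00551 for EIF5AL1, 0.00158 for LSM3 and 0.00212 for TAF10, the siFBL slope 0.0126 for EIF5AL1, 0.000818 for ZNF324, 0.0305 for TAF10, 0.0191 for KIF1C and 0.0471 for HELLPAR, and the difference 0.0071 for EIF5AL1, 0.0284 for TAF10, 0.0111 for RP5-1014D13.2, 0.0249 for KIF1C and 0.00441 for UBXN2B. The difference of ZNF324 was −0.0288 with limma and that of TAF10 0.0162 without the siFBL libraries at 24 h.

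Depth limits the late hours: by 24 h 113 and 61 of 643 members had no conversion in the siCTRL libraries. Over all 11246 intervals 2079 and 1175 had none.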
